A study of Rattus norvegicus with 8 samples.

Results

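The miR-23, miR-27 and miR-24 miRNAs come from 2 paralogous gene clusters, and 5 guide strands were followed. Cluster a encodes rno-miR-23a-3p and rno-miR-27a-3p, cluster b encodes rno-miR-23b-3p and rno-miR-27b-3p, and both encode rno-miR-24-3p (written below without the species prefix). They were taken by name from the 719 miRNAs on a rat miRNA array, on which all 5 were detected on each of 8 arrays and so were among the 243 miRNAs tested. The array profiled C6 cells, an established rat glioma line, grown in high-glucose medium with horse and fetal bovine serum. Apart from the untreated controls, groups were given a drug every day for 5 days: haloperidol at 2 µg/ml, risperidone at 4 µg/ml or clozapine at 25 µg/ml. Haloperidol is a first-generation antipsychotic, and risperidone and clozapine are second-generation ones. The design text sets each drug against untreated cells and describes 2 biological repeats, so each group has 2 arrays. No vehicle for the drugs is named in the labels, and C6 is a single line, so the values describe that line only.

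Each cluster is transcribed as 1 long primary transcript, from which Drosha and Dicer cut 3 hairpins and then the mature strands. A mature miRNA recognises messenger RNAs mainly through its seed, bases 2 to 8 from its 5′ end, and lowers their translation and stability. The miR-23 strands are known to act on the mRNA of mitochondrial glutaminase, the miR-27 strands on mRNAs of lipid storage and adipocyte differentiation, and miR-24 on mRNAs of the cell cycle. The strand of a hairpin that is kept is called the guide arm, and its partner, the passenger arm, is mostly degraded.

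The sequences are shown because the paralogues are close to identical. Probe sequences were not used here, and whether the probes of paralogues tell them apart was not tested, which bears on each comparison of cluster a with cluster b. They are the RefSeq mature sequences (rat assembly GRCr8), which were found for 5 of 5 members, and capitals mark the seed.
miR-23a-3p (cluster a, chr19:40859778-40859798, minus strand): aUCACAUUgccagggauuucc
miR-23b-3p (cluster b, chr17:1819405-1819425, minus strand): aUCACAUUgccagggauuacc
miR-27a-3p (cluster a, chr19:40859614-40859634, minus strand): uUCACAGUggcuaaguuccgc
miR-27b-3p (cluster b, chr17:1819163-1819183, minus strand): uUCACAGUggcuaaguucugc
miR-24-3p (cluster a, chr19:40859481-40859502, and cluster b, chr17:1818672-1818693, minus strand): uGGCUCAGuucagcaggaacag
The miR-23 paralogues differed by 1 base of 21, U19A with miR-23a-3p first, counted from the 5′ end. The miR-27 paralogues also differed by 1 base, C19U with miR-27a-3p first. Both substitutions lie 3 bases from the 3′ end, outside the seed, so each pair of paralogues shares its seed. The miR-23 and miR-27 seeds differ from each other by U7G. No other miRNA on the array with a RefSeq sequence (641 of 719 matched) shares a miR-23 or miR-27 seed, and 0 others share that of miR-24-3p. The miR-24-3p strands of the clusters are identical, so its signal cannot be assigned to either cluster.

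Cluster a spans 389 bases at chr19:40859455-40859843 of GRCr8, on the minus strand, in the order Mir23a, Mir27a and Mir24-2. In the RefSeq gene table it lies outside protein-coding genes, with Zswim4 as the nearest one at chr19:40832608-40857742. Cluster b spans 814 bases at chr17:1818669-1819482, on the minus strand, in the order Mir23b, Mir27b and Mir24-1. It lies within the span of Aopep, the aminopeptidase O gene (chr17:1817001-2133008). Mir3074 overlaps Mir24-1 on the opposite strand.

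The passenger arms of the miR-24 hairpins do differ between clusters, and they are shown because only they carry a cluster label for miR-24.
miR-24-2-5p (cluster a, chr19:40859517-40859538, minus strand): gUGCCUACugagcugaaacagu
miR-24-1-5p (cluster b, chr17, minus strand): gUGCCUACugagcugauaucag
Their 22 bases hold 5 differences, the first at base 17, and the seed is shared.

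A level is the log2 of a miRNA's summed array signal divided by the 75th percentile of that array, so 0 stands for that percentile. Probes bind with different strength, so levels are compared between arrays and never between miRNAs. The arrays detected 193 to 254 miRNAs, and their 75th percentiles spanned a 3.82-fold range, lowest on risperidone replicate 2. Control replicate 1 stood apart: over the 185 miRNAs detected on all arrays its mean squared deviation from the other arrays was 0.581, against 0.081 to 0.260 for the rest. All 8 arrays shared 1 slide, with the replicate number as the slide row and the group as the slide column, so column and group cannot be told apart. The glial and glioma markers miR-21-5p (6.72 to 7.64) and miR-125b-5p (5.10 to 5.59) were detected on 8 of 8 arrays. Markers fixed for other cell types gave mixed values. Neuronal miR-129-5p (-1.97 to -0.59), oligodendrocyte miR-338-3p (-1.31 to 0.53) and endothelial miR-126a-3p (-4.49 to -3.20) were detected on 8 arrays and smooth-muscle miR-143-3p on 7. Neuronal miR-124-3p, smooth-muscle miR-145-5p, muscle miR-1-3p and miR-133a-3p, erythrocyte miR-144-3p and leukocyte miR-142-5p were detected on 0. The other 5 markers on the array were detected on 1 to 5 arrays.

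Each member was read by 2 probes with 10 spots apiece. The probes of a member tracked each other over the 8 arrays, with Pearson's r from 0.951 for miR-24-3p to 0.997 for miR-27a-3p and miR-23b-3p. The SD of the log2 difference between a member's probes was 0.018 to 0.028. Spots of 1 probe on 1 array varied by 1.32% to 7.95% (coefficient of variation).

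None of the 5 members passed the test under any drug, and the values themselves show where they varied. In cluster a, miR-23a-3p lay at 4.39 and 4.14 on control replicates 1 and 2. Its levels under haloperidol were 4.03 and 4.08, under risperidone 3.98 and 4.00, and under clozapine 4.23 and 4.27. The 4 haloperidol and risperidone arrays all lay below both controls, and the clozapine arrays lay between the controls. Its group means were 4.27 ± 0.17 (SD, n = 2) for controls, 4.06 ± 0.04 for haloperidol, 3.99 ± 0.02 for risperidone and 4.25 ± 0.03 for clozapine.

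The other guide of cluster a, miR-27a-3p, varied most under this scaling, though not without scaling. It stood at 2.57 and 3.49 in controls, 3.42 and 3.57 under haloperidol, 3.56 and 3.46 under risperidone, and 3.24 and 3.85 under clozapine. Control replicate 1 was the lowest array, and control replicate 2 lay inside the range of the treated arrays, so the groups overlapped. The controls differed by 0.92, or 1.90-fold, which is more than the control mean differed from any treated mean. Both probes showed this gap, with signals of 4073 and 7083 on one and 2110 and 3679 on the other in control replicates 1 and 2, before scaling. The group means were 3.03 ± 0.65 (SD, n = 2) for controls, 3.49 ± 0.11 for haloperidol, 3.51 ± 0.07 for risperidone and 3.54 ± 0.43 for clozapine.

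In cluster b, miR-23b-3p lay at 3.53 and 3.02 in controls, 3.18 and 2.97 under haloperidol, 3.10 and 2.92 under risperidone, and 3.36 and 3.13 under clozapine. Replicate 1 was higher than replicate 2 in all 4 groups, and each treated group overlapped the controls. Its means were 3.27 ± 0.36 (SD, n = 2), 3.08 ± 0.15, 3.01 ± 0.13 and 3.24 ± 0.16 in controls, haloperidol, risperidone and clozapine. The other cluster b guide, miR-27b-3p, lay at 2.97 and 2.90 in controls, 3.09 and 2.90 under haloperidol, 3.08 and 2.82 under risperidone, and 3.08 and 3.08 under clozapine. Both clozapine arrays lay just above both controls, and the other drugs overlapped the controls. The means were 2.93 ± 0.05 (SD, n = 2), 2.99 ± 0.13, 2.95 ± 0.19 and 3.08 ± 0.0014 in the same order.

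The shared strand, miR-24-3p, was the steadiest member under this scaling, and miR-23a-3p was steadier with quantile normalization and without scaling. It lay at 4.04 and 4.12 in controls, 4.14 and 4.01 under haloperidol, 4.04 and 3.90 under risperidone, and 4.09 and 4.04 under clozapine. Its full range over the 8 arrays was 0.24, with the haloperidol and clozapine arrays overlapping the controls and both risperidone arrays below them, the nearer array by 0.005 from the lower control. Group means were 4.08 ± 0.05 (SD, n = 2), 4.08 ± 0.10, 3.97 ± 0.10 and 4.07 ± 0.04 in controls, haloperidol, risperidone and clozapine.

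**Figure D1:**
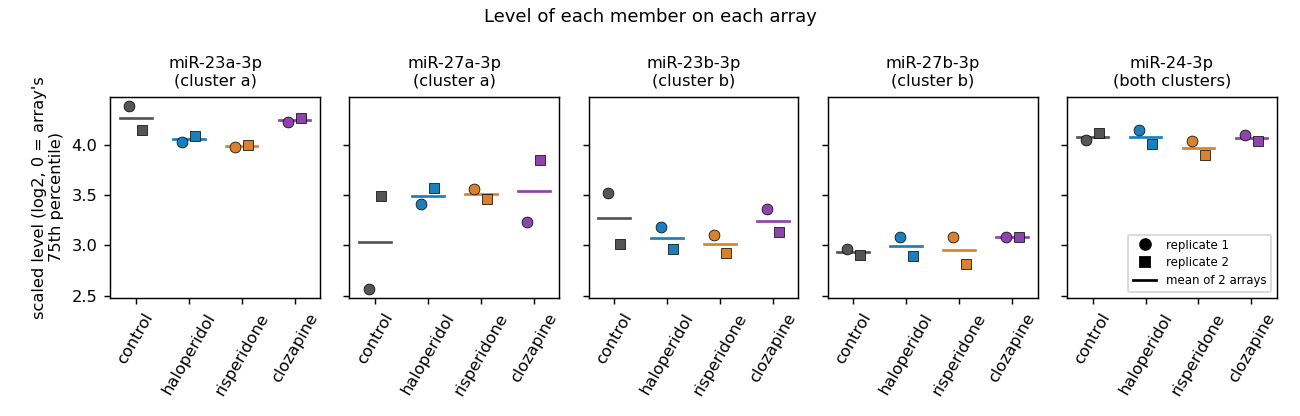
Scaled log2 level of each member on each of the 8 arrays, by group, with replicate 1 as circles, replicate 2 as squares and the mean of the 2 arrays as a line. The lowest miR-27a-3p point is control replicate 1 at 2.57, and all miR-24-3p points lie between 3.90 and 4.14.

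Each drug was then set against untreated cells. With limma over all 8 arrays and Benjamini-Hochberg adjustment over 243 miRNAs, 0 of 5 members had an adjusted p under the threshold for haloperidol, risperidone or clozapine, and so did 0% of all miRNAs for each drug. At an unadjusted p under 0.05 the members again numbered 0 of 5, against 6.58% of all miRNAs for haloperidol, 8.64% for risperidone and 14.8% for clozapine. The smallest adjusted p-value among the members was 0.581 for haloperidol, 0.473 for risperidone and 0.572 for clozapine (limma). For any difference among the 4 groups, limma's F test called 0 of 5 members and 0% of miRNAs, with 3.29% of all miRNAs and 0 members at an unadjusted p under 0.05. Without control replicate 2 the count over all miRNAs became 5 for haloperidol, 6 for risperidone and 7 for clozapine, with 0 members among them.

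The miR-27a-3p estimates were the largest of the members in size. Log2 fold changes over control were 0.46 for haloperidol (95% interval -0.44 to 1.36), 0.48 for risperidone (-0.42 to 1.38) and 0.51 for clozapine (-0.39 to 1.41), each with a standard error of 0.36. They rest on control replicate 1: without that array they were 0.00, 0.02 and 0.05, and without control replicate 2 they were 0.92, 0.94 and 0.97. Without scaling between arrays the risperidone estimate was -0.14. Against control replicate 1 alone, all 6 treated arrays were higher, by 0.67 to 1.28, and against control replicate 2 alone 3 were higher and 3 lower, from -0.26 to 0.35. Within slide row 1 the differences from control were 0.85, 0.99 and 0.67, and within row 2 they were 0.07, -0.03 and 0.35. The same control arrays serve all 3 drugs, so their likeness is not independent.

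For miR-23a-3p the estimates were -0.21 (haloperidol), -0.28 (risperidone) and -0.02 (clozapine), each with SE 0.13. The 95% intervals ran from -0.55 to 0.13, from -0.61 to 0.06 and from -0.36 to 0.32. The sign turned for haloperidol without scaling (0.05). When arrays were scaled on the 75th percentile of all probes, it turned for risperidone (0.31) and for clozapine (0.63). Without control replicate 1 the estimates were -0.09, -0.16 and 0.10. Within slide row 1 the differences were -0.36, -0.41 and -0.16, and within row 2 they were -0.059, -0.145 and 0.122. For its paralogue miR-23b-3p they were close to these, -0.20, -0.26 and -0.03 (SE 0.22), and without control replicate 1 they were 0.06, 0.00 and 0.23. They turned sign under the same scalings, to 0.06 for haloperidol without scaling and to 0.33 and 0.62 for risperidone and clozapine on the percentile of all probes.

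For miR-27b-3p the estimates were 0.06, 0.02 and 0.15 (SE 0.15) with haloperidol, risperidone and clozapine, and the 95% intervals together covered -0.35 to 0.52. For miR-24-3p they were -0.01, -0.11 and -0.01 (SE 0.13), with intervals that together covered -0.43 to 0.31. As linear ratios over control these bounds are 0.741 and 1.24. Signs of such small estimates turned with the scaling: that of miR-24-3p was positive for all 3 drugs with the percentile over all probes (0.11, 0.48 and 0.63).

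Counted together, 2 of 5 members lay above 0 and 3 below under each drug. Their median log2 fold change was -0.01 for haloperidol, -0.11 for risperidone and -0.01 for clozapine. Over all 243 miRNAs the medians were -0.15, -0.15 and -0.17, and 62.1%, 61.7% and 68.3% of miRNAs lay below 0. Drug and control arrays did not overlap for 1 member with haloperidol (miR-23a-3p), 2 with risperidone (miR-23a-3p and miR-24-3p) and 1 with clozapine (miR-27b-3p). The background was 43.6%, 39.9% and 39.1% of all miRNAs, so these counts of 5 lie at or below it. Between drugs, the 15 member comparisons ran from -0.11 (miR-24-3p, risperidone over haloperidol) to 0.26 (miR-23a-3p, clozapine over risperidone), and limma called 0 of them, 0 also at an unadjusted p under 0.05.

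**Figure D2:**
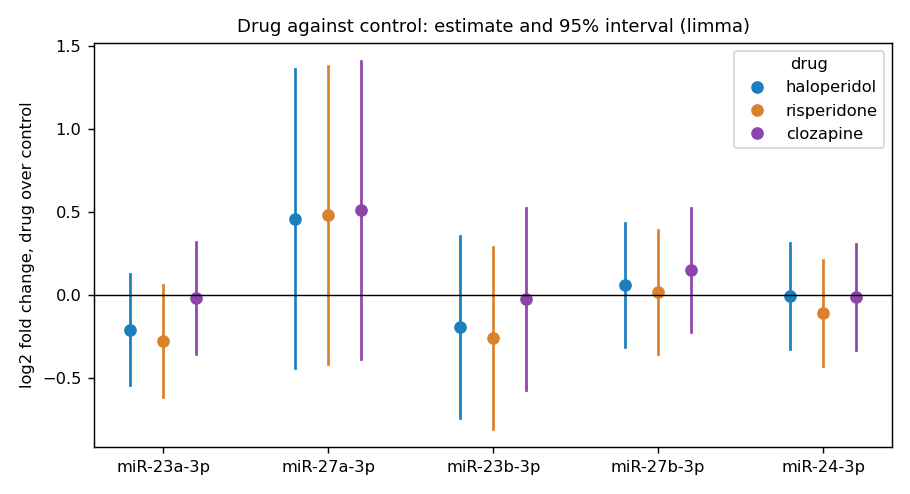
Log2 fold change of each member for each drug over control (points) with its 95% interval from limma (bars). Every interval crosses 0, and those of miR-27a-3p are the widest, from -0.44 to 1.41 over the 3 drugs.

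The comparison of cluster a with cluster b was made within each array, where the scaling cancels. The difference miR-23a-3p minus miR-23b-3p was nearly the same in every group: 0.995 ± 0.186 (SD, n = 2) for controls, 0.982 ± 0.190 for haloperidol, 0.974 ± 0.143 for risperidone and 1.003 ± 0.189 for clozapine. Its size reflects probe strength as well as abundance, so only its change is read. The change from control was -0.01, -0.02 and 0.01, and within slide rows it ranged from -0.05 to 0.01. An exact permutation test over the 2520 ways of dividing 8 arrays into 4 groups gave p = 0.914 (statistic, the sum of squares between groups), where the smallest p possible is 0.0095. That test ignores the replicate number. Permuted only within replicate numbers, the exact permutation p was 0.625.

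Inside each group, though, the replicates stood apart in the same way. This miR-23 difference was 0.86 and 1.13 in control replicates 1 and 2, and over the 4 groups it was 0.85 to 0.87 on replicate 1 arrays and 1.07 to 1.14 on replicate 2 arrays. The mean difference between replicate 2 and replicate 1 was 0.25, more than 10 times the size of the change from control under any drug. The replicate numbers did not overlap under 7 of the 8 settings tried for signal and scaling, and overlapped with quantile normalization. These settings are not all separate. Without scaling, with the percentile over all probes and with the deposited gene-level signal the values were the same as in the main setting, since scaling cancels. The levels of each of the 5 members, taken singly, did overlap between replicate numbers. Of the 185 miRNAs detected on all arrays, 36 (19.5%) did not, and the share over pairs of miRNAs was not computed. Replicate number and slide row cannot be told apart.

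The difference miR-27a-3p minus miR-27b-3p was wider. On control replicate 1 it was -0.40, and on the other replicate 1 arrays 0.15 to 0.48. On replicate 2 arrays it lay at 0.59 to 0.77, above every replicate 1 array. That order held under all 8 of those settings, of which those that rescale whole arrays gave the same values again. Between replicate numbers, 19.5% of single miRNAs detected on all arrays did not overlap either, and no share over pairs was computed. By group it was 0.10 ± 0.70 (SD, n = 2) for controls, 0.50 ± 0.24 for haloperidol, 0.56 ± 0.11 for risperidone and 0.46 ± 0.43 for clozapine. The changes of 0.40, 0.46 and 0.36 were smaller than the spread of the controls, and the exact permutation p was 0.781. Permuted only within replicate numbers, it was 0.333. Within slide row 1 they were 0.72, 0.88 and 0.55, and within row 2 they were 0.08, 0.05 and 0.17.

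Members of 1 cluster were compared in the same way. The difference miR-23a-3p minus miR-27a-3p was 1.82 on control replicate 1 and 0.41 to 0.99 on the other 7 arrays, and its exact permutation p over groups was 0.305. In cluster b, miR-23b-3p minus miR-27b-3p was 0.56 on control replicate 1 and 0.02 to 0.28 on the others, with an exact permutation p of 0.381. Control replicate 1 was the highest array in both, and the haloperidol and risperidone arrays lay below both controls in both. In cluster b the margin was small, with risperidone replicate 2 at 0.1045 and control replicate 2 at 0.1159. The share over all pairs of miRNAs was not computed. Of single miRNAs, 43.6% did not overlap the controls with haloperidol and 39.9% with risperidone. Within slide row 1 the changes under haloperidol, risperidone and clozapine were -1.21, -1.41 and -0.83 for the cluster a difference and -0.47, -0.54 and -0.28 for that of cluster b. Within row 2 they were -0.13, -0.11 and -0.23 in cluster a and -0.045, -0.011 and -0.068 in cluster b, so all had the same sign in both rows. Adjusted over the 4 differences, the exact permutation p-values were 0.914 for each paralogue pair and 0.762 for each cluster pair. Permuted only within replicate numbers and not adjusted, the exact permutation p-values of the cluster pairs were 0.25 in cluster a and 0.375 in cluster b.

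**Figure D3:**
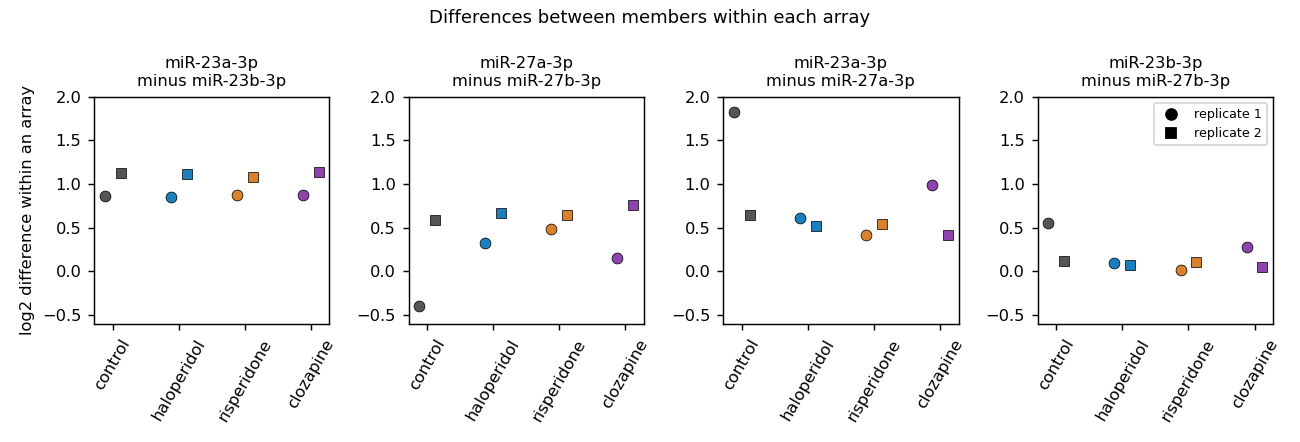
Log2 difference between 2 members within each array, by group, with replicate 1 as circles and replicate 2 as squares. The miR-23a-3p minus miR-23b-3p panel splits by replicate number (0.85 to 0.87 against 1.07 to 1.14) and not by drug, and control replicate 1 is the lowest point of the miR-27 panel at -0.40. Of single miRNAs detected on all arrays, 19.5% also did not overlap between replicate numbers.

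Hairpin partners of the members were also on the array. Of the 7 other mature miRNAs of these hairpins, miR-27a-5p, miR-23b-5p, miR-27b-5p, miR-24-1-5p and miR-3074 were detected on 0 of 8 arrays. Both detected partners, miR-23a-5p and miR-24-2-5p, belong to cluster a. The miR-24-2-5p level was -3.30 and -1.69 in controls, -1.97 and -1.51 under haloperidol, -1.60 and -1.84 under risperidone, and -2.35 and -1.28 under clozapine. Control replicate 1 was again the lowest array, 1.61 (3.04-fold) below control replicate 2. The fold changes were 0.76, 0.78 and 0.68 (log2, SE 0.62), and without control replicate 1 they were -0.05, -0.02 and -0.12. None passed the test, with adjusted p from 0.551 to 0.639 (limma). The summed signal was low, 105.7 to 377.4. With normexp background correction the estimates were 0.24 for haloperidol, 0.66 for risperidone and 1.06 for clozapine.

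The dim miR-23a-5p lay at -3.20 and -3.58 in controls, -3.97 and -3.95 under haloperidol, -3.94 and -4.56 under risperidone, and -3.95 and -5.36 under clozapine. All 6 treated arrays lay below both controls. Of all miRNAs, 43.6%, 39.9% and 39.1% did not overlap the same controls, in either direction, with haloperidol, risperidone and clozapine. Its log2 fold changes were -0.57, -0.86 and -1.27 (SE 0.49), and the adjusted p for clozapine was 0.335 (limma, unadjusted p 0.0469). The signal was only 16.4 to 113, came mainly from 1 of 4 probes, and the clozapine and risperidone estimates turned to 0.85 and 0.36 with normexp background correction. The guide of the same hairpin, miR-23a-3p, had -0.02 with clozapine.

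Over the 8 arrays the members were then compared by correlation, over 10 pairs. The paralogues miR-23a-3p and miR-23b-3p had r = 0.748 (exact permutation p = 0.0317, adjusted over 10 pairs 0.159; rho = 0.619, exact permutation p = 0.115). Without the 2 arrays farthest from the median of miR-23a-3p, r was 0.547. The members of cluster a went opposite ways, with r = -0.555 for miR-23a-3p and miR-27a-3p (exact permutation p = 0.145, adjusted 0.363; rho = -0.238, exact permutation p = 0.582), and -0.666 without control replicate 1 and clozapine replicate 2. The lowest value was that of miR-27a-3p and miR-23b-3p, r = -0.785 (exact permutation p = 0.0209, adjusted 0.159; rho = -0.595, exact permutation p = 0.132), and -0.797 without the same 2 arrays. Both negative values depended on the scaling: without it they were 0.698 and 0.641. The paralogues miR-27a-3p and miR-27b-3p had r = 0.099 (exact permutation p = 0.854, adjusted 0.854; rho = -0.262, exact permutation p = 0.536), and -0.393 without 2 arrays. No pair passed after adjustment on these levels. On deviations from the group means, miR-27a-3p and miR-23b-3p had r = -0.891. With 2 arrays a group, the deviations of a group mirror each other, so a permutation of 8 free values does not hold for them. No p-value is read there. Arrays share the scaling, and without it all 10 correlations lay between 0.641 and 0.991, and 8 of them passed.

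The miRNAs whose levels were most like each member were named by the highest r among the 184 others detected on all arrays, as a description. For miR-27a-3p they were miR-301a-3p (r = 0.990), miR-24-2-5p (0.989) and miR-19a-3p (0.982). The passenger arm miR-24-2-5p of its own cluster was thus the second of 184, and r was 0.957 without control replicate 1, 0.949 without scaling and 0.992 without the 2 arrays farthest from the median. By contrast, miR-23a-3p ranked 116 of 184 for miR-27a-3p. The miR-24-2-5p arm had r = -0.115 with miR-24-3p, the guide from its own hairpin and from that of cluster b. That value says little about whether the arms move apart, since miR-24-3p hardly varied under this scaling (SD 0.076). It was not computed under other scalings.

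For miR-23b-3p the most alike were miR-30c-5p (0.970), miR-26b-5p (0.958) and miR-26a-5p (0.945). For miR-23a-3p they were miR-361-5p (0.938), miR-30e-3p (0.914) and miR-340-3p (0.834), with the paralogue miR-23b-3p sixth of 184. For miR-27b-3p they were miR-9a-3p (0.867), miR-140-5p (0.857) and miR-135b-5p (0.843). For miR-24-3p they were miR-31a-5p (0.854), miR-195-5p (0.827) and miR-872-3p (0.819). The last group rests on few arrays, since r without haloperidol replicate 1 and risperidone replicate 2 was 0.576, 0.185 and 0.121.

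**Figure D4:**
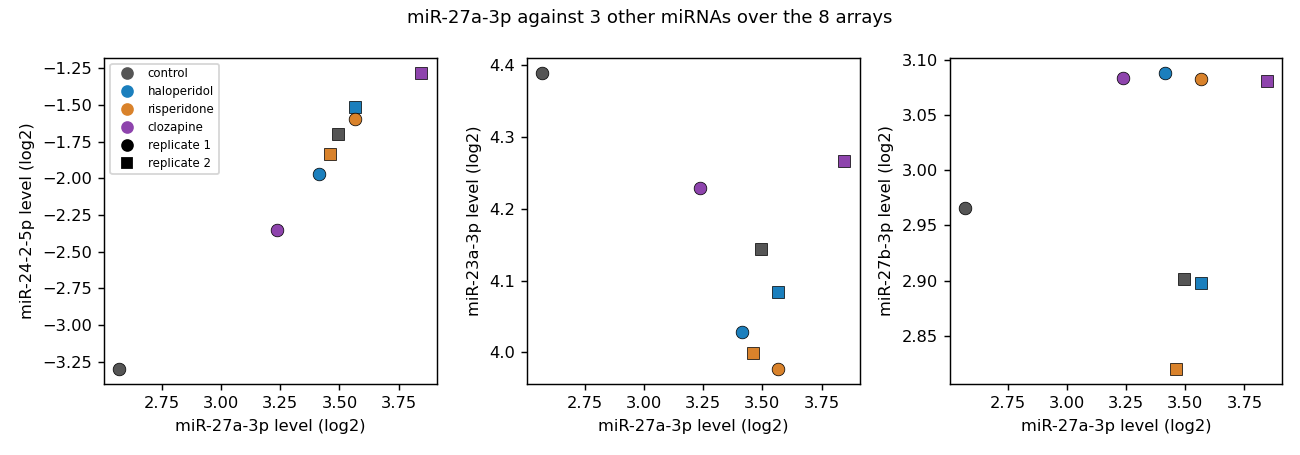
Level of miR-27a-3p (x axis, log2) against miR-24-2-5p, miR-23a-3p and miR-27b-3p (y axes, log2), 1 point per array, coloured by group with replicate 1 as circles and replicate 2 as squares. The miR-24-2-5p points follow a line (r = 0.989), and the points of the other 2 panels do not (r = -0.555 and 0.099).

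Under the scaling used here the members differed in how much they varied. The SD over 8 arrays was 0.076 for miR-24-3p, 0.108 for miR-27b-3p, 0.145 for miR-23a-3p, 0.203 for miR-23b-3p and 0.375 for miR-27a-3p, against a median of 0.314 over the 185 miRNAs detected on all arrays. The miR-24-3p value was the lowest of the 185 in this setting and with normexp, ranked 2 to 6 from the lowest with other probe summaries and quantile normalization, and ranked 56 without scaling and 65 with the percentile over all probes. The order of the members also moved with the scaling. Without scaling their SDs were close, from 0.597 for miR-23a-3p to 0.675 for miR-23b-3p, with miR-27a-3p at 0.615 and miR-24-3p at 0.634. With quantile normalization miR-23a-3p had the lowest SD of the members (0.037, against 0.060 for miR-24-3p).

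**Figure D5:**
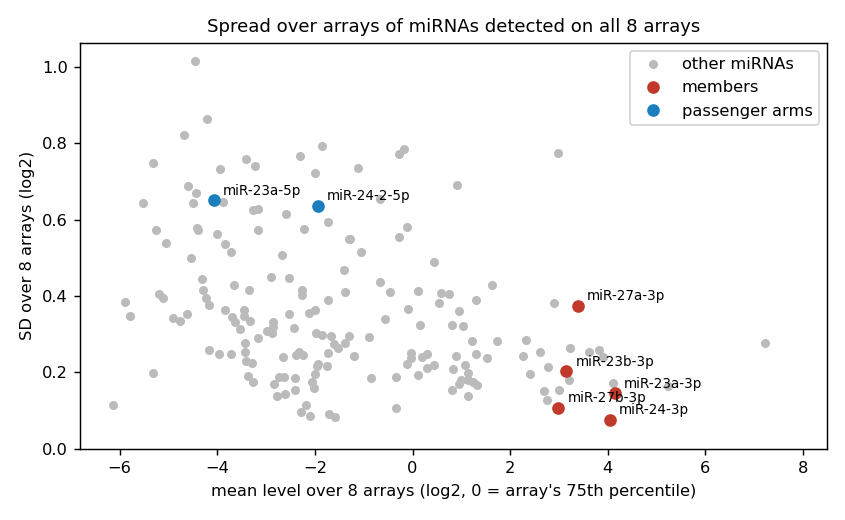
SD over the 8 arrays (log2) against mean level (log2) for the 185 miRNAs detected on all arrays, with the 5 members in red and the 2 detected passenger arms in blue. The SDs of the members run from 0.076 for miR-24-3p to 0.375 for miR-27a-3p, and a place on the x axis depends on probe strength as well as abundance.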

How the data were processed

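The spot files hold background-subtracted array intensity, linear and not scaled between arrays, made by the authors with Agilent Feature Extraction 10.7.3.1, per the file headers. The flags for detection, outlier and background are 0 or 1 (unit other) in the deposited files. Labelling used Cy3 and 100 ng of total RNA per array, per the labels' protocols. Spots without outlier flags were averaged per probe and summed per miRNA. For scaling, each array's sums were divided by its 75th percentile, taken over 291 probes that exceeded background everywhere. Values under a floor of 0.0134 (log2 -6.22), the 5th percentile of detected values, were set to it before log2. The 243 miRNAs detected on both arrays of a group were fitted with limma 3.58.1 in R 4.3.3 (lmFit, eBayes, 4 residual and 5.43 total degrees of freedom), two-sided, with Benjamini-Hochberg adjustment and a threshold of 0.05. The fit was tested on simulated data. Differences within arrays and correlations had exact permutation tests. With 2 arrays a group, their number limits the precision, and no saturated spot was found. The members and lists were chosen with earlier results of these data known. The named miRNAs were the 5 members, the other strands of their hairpins, miRNAs sharing a seed, and the 3 miRNAs most alike each member by r. Alternatives changed scaling, background correction, probe summary, filter, replicate block, arrays in the fit and variance model, and left out each array. Normexp (offset 50) used spot and background medians. Sequences and coordinates are from RefSeq tables of GRCr8. The sequence of miR-23a-5p is not shown.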

Additional observations from a re-analysis of the deposited data

How the results depend on the processing

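No member passed the adjusted threshold under any alternative run. Over all miRNAs, limma called 0 for each drug. With the replicate number as a replicate block, limma called 1 for risperidone and 2 for clozapine, and leaving out 1 array gave 0 to 5 calls (haloperidol), 0 to 6 (risperidone) and 0 to 7 (clozapine), above 0 only without control replicate 2. The block changed no other call, and members were 0 of each. Same-numbered arrays deviated together with r of 0.128 to 0.787 over the 6 group pairs, and 2 numbers do not settle a pairing. The 4 within-array differences stayed on the same side of the threshold under 32 fits of other settings and 32 with 1 array left out. Some of the former could not differ. Without scaling, with the percentile over all probes and with the deposited gene-level signal the p-values equalled the main ones, because scaling cancels.

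Of the members' and passenger arms' log2 fold changes, 26 turned sign under another setting and 226 did not, and with 1 array left out 15 turned and 153 did not. Many of those that did not turn could not. A change of filter, replicate block, variance model or groups fitted leaves the estimate as it is, and so does leaving out an array of another drug. The cause of the turns was not tested. Without scaling, the haloperidol values were 0.048 for miR-23a-3p, 0.061 for miR-23b-3p and 0.25 for miR-24-3p, the risperidone values -0.14 for miR-27a-3p and -0.60 for miR-27b-3p, and the clozapine value -0.28 for miR-27b-3p. With the percentile over all probes, risperidone gave 0.31 for miR-23a-3p, 0.33 for miR-23b-3p and 0.48 for miR-24-3p, clozapine 0.63, 0.62 and 0.63 for these, and haloperidol 0.11 for miR-24-3p. With quantile normalization, clozapine gave 0.042 for miR-23a-3p, 0.032 for miR-23b-3p, and haloperidol 0.082 for miR-24-3p. With the deposited gene-level signal, clozapine gave 0.013 for miR-23a-3p, 0.0047 for miR-23b-3p and 0.018 for miR-24-3p, and risperidone -0.027 for miR-27b-3p. With normexp, miR-27b-3p was at -0.028 (risperidone), miR-24-3p at 0.0019 (haloperidol) and miR-23a-5p at 0.36 (risperidone) and 0.85 (clozapine). With the brightest probe, miR-24-3p was at 0.0005 for haloperidol and 0.0033 for clozapine.

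Leaving out 1 array, the values that turned ranged as follows. Under haloperidol the ranges were -0.003 to 0.92 for miR-27a-3p, -0.45 to 0.058 for miR-23b-3p, -0.036 to 0.15 for miR-27b-3p, -0.075 to 0.062 for miR-24-3p and -0.048 to 1.56 for miR-24-2-5p. Under risperidone they were -0.11 to 0.15 for miR-27b-3p and -0.023 to 1.58 for miR-24-2-5p. Under clozapine they were -0.14 to 0.10 for miR-23a-3p, -0.28 to 0.23 for miR-23b-3p, -0.052 to 0.024 for miR-24-3p and -0.12 to 1.48 for miR-24-2-5p.

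Correlations that turned sign without scaling or with the percentile over all probes were miR-23a-3p with miR-27a-3p (0.698, 0.785), miR-27a-3p with miR-23b-3p (0.641, 0.689) and miR-27a-3p with miR-24-3p (0.807, 0.904). On deviations from group means, miR-23a-3p had r = -0.008 with miR-27b-3p and -0.567 with miR-24-3p, and miR-27a-3p had r = -0.168 with miR-27b-3p and 0.132 with miR-24-3p. There miR-27a-3p with miR-23b-3p had r = -0.891, and miR-27b-3p with miR-24-3p had 0.811. No p-value is read from these deviations, which mirror each other within a group of 2 arrays. Without scaling 8 of the 10 pairs passed adjustment, and with the percentile over all probes 9 did, all positive. In both settings every member spread more over the arrays, with an SD for miR-24-3p of 0.634 and 0.468 against 0.076. The passes are therefore not read as likeness of members.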
